A study of Mus musculus with 10 samples.

Results

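Genes for the protein components of the mitochondrial ribosome were examined in the subcutaneous fat of mice that differ at an obesity locus. The genes were taken by name, as every gene whose symbol starts with Mrpl (large subunit) or Mrps (small subunit) followed by a digit. The reference annotation lists 84 such genes, of which 78 code for protein and 6 are pseudogenes with no entry in the probe annotation. Of the 78, 73 were measured, 46 Mrpl and 27 Mrps, among 19659 measured genes in all. Mrpl23, Mrpl48, Mrps33 and Mrps36 had only probe sets (groups of probes read as 1 value) without a value, and the probe set of Mrpl53 also names Ccdc142. No filter on intensity was applied, so none of the 73 was lost to one.

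The 10 mice were untreated F2 females aged 14 weeks bred from the Fat line, a selected obese line, and its V congenic line, and ate chow. The 5 FF mice were homozygous for the Fat-line allele at Fob3a, an obesity QTL, and the 5 VV mice for the V-line allele, which the labels also call the lean-line allele. The V line was made by 11 to 12 backcrosses to the Fat line with marker-assisted removal of other QTL regions, so both groups share a largely Fat-line background. The labels give each mouse its own animal number, and 1 array was hybridised per mouse with RNA from the inguinal-femoral fat depot. The title of the study links Deptor, which binds and inhibits mTOR, to adipogenesis and obesity. The question asked here is whether the mitochondrial ribosome genes, and its large and small subunits, differ between FF and VV fat.

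The mitochondrial ribosome translates the few proteins that are encoded in mitochondrial DNA, all of them core parts of the respiratory chain and ATP synthase. Its RNA comes from mitochondrial DNA, whereas its proteins are encoded in the nucleus, made in the cytosol and imported. Many of these proteins have counterparts in bacterial ribosomes and others are found only in mitochondria. In fat, mitochondria are most abundant in brown and beige adipocytes, which burn fuel for heat.

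Values are log2 intensities as the authors normalised them, from 3.56 to 14.22 with array medians from 7.15 to 7.21, and a difference is FF minus VV, so that 1 unit is a doubling. The level of 1 probe set cannot be set against that of another, so levels are compared only within a gene. Fat markers were high on all arrays (Adipoq from 13.25 to 13.44, Plin1 from 12.97 to 13.11), and their list mean was 0.07 higher in FF. Of the 11 measured fat markers 7 were higher and 4 lower in FF on average, none past the adjusted threshold in limma. At an unadjusted p under 0.05, 4 were higher and 1 lower, against 10.2% of all genes higher and 6.18% lower. These ran from 0.54 for Slc2a4, the insulin-responsive glucose transporter, to -0.24 for Lep, the hormone leptin. Every FF mouse lay above every VV mouse for 2 markers, Slc2a4 and Lipe (difference 0.12), against 3.36% of all genes. RNA of other cells or tissues differed between mice. All 15 measured leukocyte markers were lower in FF on average, with list means (log2 values centred per gene) from -0.40 to -0.01 in FF and from 0.12 to 0.52 in VV. At an unadjusted p under 0.05, 14 of the 15 were lower, against 6.18% of all genes. At an adjusted p under 0.05 in limma 1 was lower, against 0.132% of all genes. For 5 of them every FF mouse lay below every VV mouse, against 1.34% of all genes. The part of the leukocyte markers in the results below was not tested. The liver list mean was 3.53 in VV replicate 1 and 0.47 in VV replicate 2, and from -0.70 to -0.25 in the other 8 mice. The skeletal muscle list mean was 1.83 in FF replicate 1 and from -0.48 to 0.24 elsewhere, with 16 of 16 members higher in FF on average. Of 9 mammary epithelium markers 3 were higher in FF on average, with list means from -0.09 to 0.05 in FF and from -0.02 to 0.08 in VV. Deptor itself was 1.46-fold higher in FF (difference 0.55 ± 0.06 SE; adjusted p = 0.00553 in limma, Benjamini-Hochberg over all genes).

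All 73 mitochondrial ribosomal protein genes had a higher mean in FF fat than in VV fat, each by a small amount. The differences ran from 0.04 for Mrps16 to 0.45 for Mrpl47, with a median of 0.22, which is a 1.16-fold difference, and the lower and upper quartiles were 0.13 and 0.27. Over all 19659 genes the median difference was 0.001 and 50.3% had a positive difference. At an adjusted p under 0.05 in limma, 1 of the 73 rose, Mrps18a, and none fell; over all genes 148 passed, which is 0.753%, and 0.621% passed as higher in FF. At an unadjusted p under 0.05, 41 of the 73 were higher and none lower, against 10.2% of all genes higher and 6.18% lower. At an adjusted p under 0.10, 17 of the 73 were higher, against 2.70% of all genes. In 15 of the 73 every FF mouse lay above every VV mouse, which held for 3.36% of all genes; in no member did every FF mouse lie below, against 1.34% of all genes. These are counts over genes measured on the same 10 arrays, so they do not act as separate observations.

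**Figure D1:**
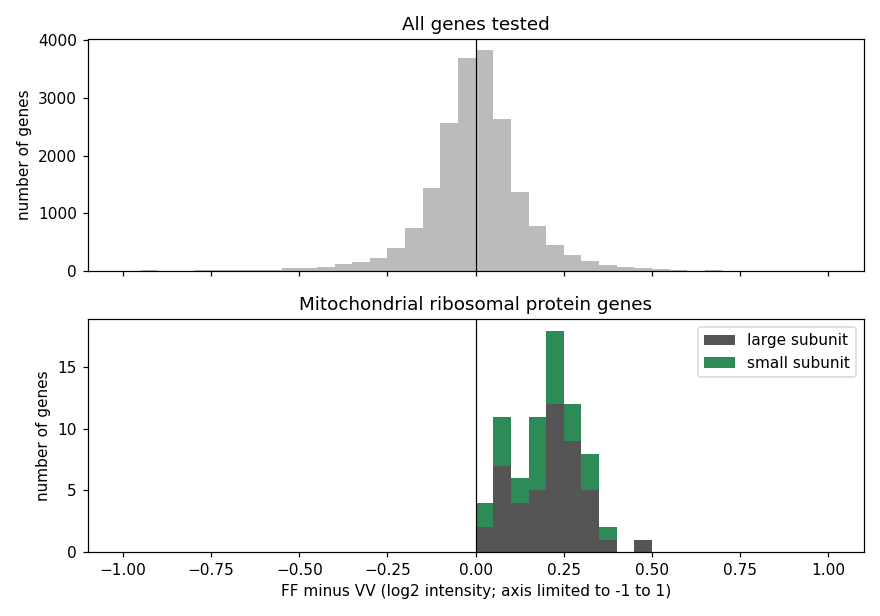
Number of genes by difference between FF and VV (x axis, FF minus VV in log2 intensity, bins of 0.05) for all genes tested (upper panel) and for the 73 mitochondrial ribosomal protein genes (lower panel, stacked by subunit). The 73 members lie between 0.04 and 0.45, all to the right of 0, while all genes centre near 0; 70 of the 19659 genes lie outside the axis.

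The direction depended little on any 1 mouse and the calls depended on it strongly. All 73 differences stayed positive when FF replicate 2, 3 or 5 or VV replicate 1, 2, 3 or 5 was left out. Of the 73, 71 stayed positive without FF replicate 1, 72 without FF replicate 4 and 70 without VV replicate 4, and the lowest difference among these fits was -0.06. The number past the adjusted threshold was 13 without FF replicate 3, when 1.59% of all genes passed as higher, 3 without VV replicate 1 (0.631% of all genes) and 1 without VV replicate 3 (0.341%). It was 0 without FF replicate 1, 2, 4 or 5, when 0.0763%, 0.0509%, 0.254% and 0.0966% of all genes passed as higher, and 0 without VV replicate 2, 4 or 5, when 0.0356%, 0.0814% and 0.0814% did. Without FF replicate 1 and VV replicate 1 together, which carried the highest muscle and liver list means, 72 of 73 differences stayed positive and 0 members passed, against 0.127% of all genes. The arrays of FF had slightly lower medians (7.149 to 7.175) than those of VV (7.181 to 7.208); centring every array on its median moved the median of all genes to 0.022, and 7 members then rose, against 1.50% of all genes.

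Seen by mouse, the members moved together. VV replicate 4 held the lowest value of 59 of the 73 genes and FF replicate 4 the highest value of 32. In FF replicates 1, 2, 4 and 5, 62, 57, 68 and 67 of the 73 lay above their own median over the 10 mice. FF replicate 3 differed from them, with 29 above. In VV replicates 1, 2, 4 and 5 the number above was 18, 6, 4 and 17, while VV replicate 3 had 37 above. FF replicate 3 and VV replicate 3 therefore overlapped for many members. The mean of all 73, each gene centred over the 10 mice, was 0.14, 0.08, -0.02, 0.17 and 0.14 in FF replicates 1 to 5 and -0.04, -0.13, -0.001, -0.29 and -0.06 in VV replicates 1 to 5. The lowest FF mouse, replicate 3, lay below the highest VV mouse, replicate 3, so the groups overlapped by this measure. Without VV replicate 4 the median difference over the members was 0.17 in place of 0.22.

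**Figure D2:**
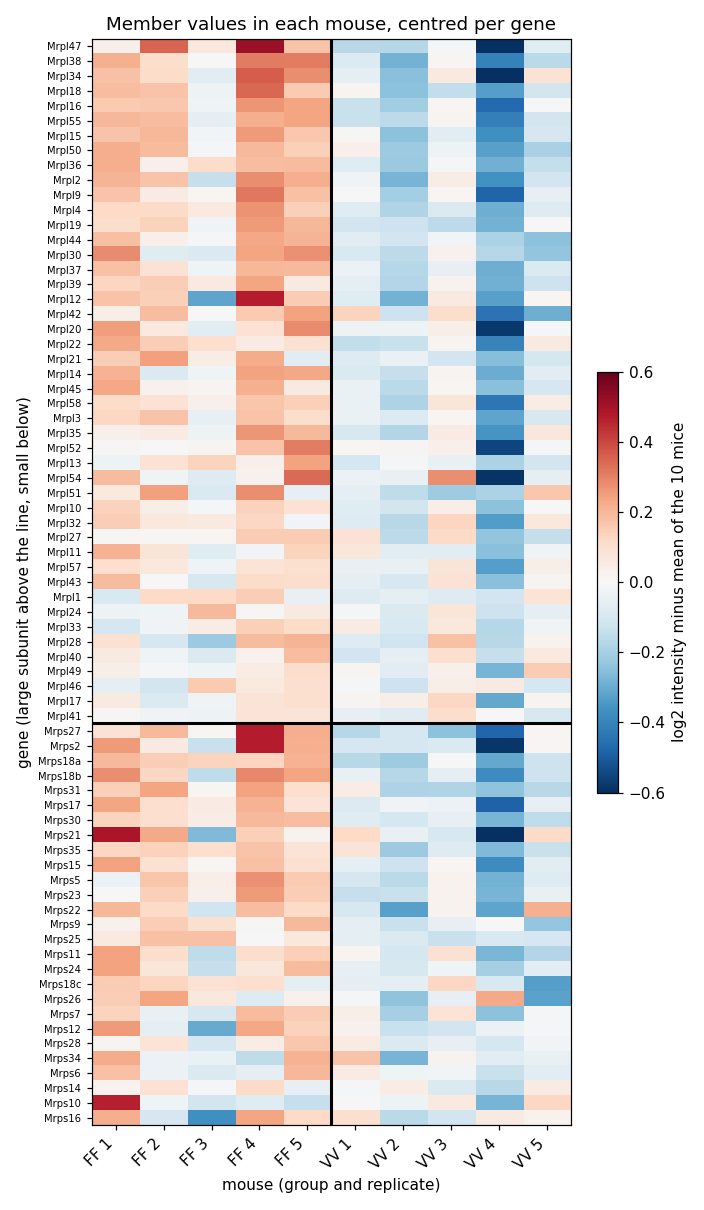
Log2 intensity of each of the 73 genes (rows, large subunit above the line and small below, ordered by difference) in each of the 10 mice (columns), after subtraction of the gene's mean over the mice; red is above and blue below that mean, and colours saturate at 0.6 on either side. Most FF columns are red and most VV columns blue, with FF replicate 3 and VV replicate 3 pale and VV replicate 4 the deepest blue.

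The large and the small subunit shifted by similar amounts. The median difference was 0.22 over the 46 Mrpl genes (range 0.05 to 0.45) and 0.19 over the 27 Mrps genes (range 0.04 to 0.39). Their difference, 0.03, became -0.02 without VV replicate 4 and was 0.002 without FF replicate 4. At an unadjusted p under 0.05, 27 of 46 large and 14 of 27 small subunit genes were higher and none lower, against 10.2% of all genes higher. The FF mice all lay above the VV mice for 8 large and 7 small subunit genes, against 3.36% of all genes. At the adjusted threshold in limma the large subunit had 0 and the small subunit 1, against 0.621% of all genes. The large subunit mean, as centred log2 values, was 0.12, 0.07, -0.01, 0.19 and 0.15 in FF and -0.04, -0.14, 0.02, -0.31 and -0.05 in VV, replicates 1 to 5. The small subunit mean was 0.17, 0.10, -0.05, 0.15 and 0.12 in FF and -0.02, -0.13, -0.04, -0.24 and -0.07 in VV. Large minus small within a mouse had a mean of 0.01 ± 0.04 (SD) over the 5 FF mice and of -0.01 ± 0.05 (SD) over the 5 VV mice, so the gap between the group means was smaller than the spread between mice. The gap was not tested, since the genes were taken with earlier results of these data known.

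The symbols do not fully match the particle. In the mammalian mitochondrial ribosome the products of Mrps18a and Mrps30 sit in the large subunit despite their names. With both counted there, an assignment added after the values were seen, the median was 0.23 over 48 large subunit genes and 0.19 over 25 small subunit genes, and the 1 gene past the adjusted threshold belonged to the large subunit.

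Mrps18a, one of 3 mammalian relatives of the bacterial ribosomal protein S18, was the member past the threshold. Its log2 intensity was 9.54, 9.49, 9.48, 9.47 and 9.55 in FF replicates 1 to 5 and 9.18, 9.13, 9.35, 9.04 and 9.22 in VV replicates 1 to 5. Every FF mouse lay above every VV mouse, and the FF mice spanned a narrow range. The means were 9.51 ± 0.04 and 9.18 ± 0.11 (SD, 5 mice each), a difference of 0.32 ± 0.06 SE or 1.25-fold (95% interval 1.15 to 1.36), with an adjusted p of 0.0352 in limma. The call was lost without FF replicate 1, 2, 4 or 5, without VV replicate 2, 4 or 5, without FF replicate 1 and VV replicate 1 together, with the replicate number as a block and after quantile normalisation; the adjusted p ran from 0.023 to 0.163 over 19 alternatives. Of its paralogs, which sit in the small subunit, Mrps18b differed by 0.31 ± 0.09 SE (adjusted p = 0.130) and Mrps18c by 0.16 ± 0.08 SE (adjusted p = 0.328). The differences did not separate the 3 paralogs. In two-sided exact permutation tests over the 252 assignments of mice, the gap between Mrps18a and Mrps18c was 0.16 (exact p = 0.135) and that between Mrps18b and Mrps18c was 0.14 (exact p = 0.278). The gap between Mrps18a and Mrps18b was 0.02 (exact p = 0.881), and the lowest exact p adjusted over the 3 pairs was 0.405.

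Mrps30, Mrpl4 and Mrpl36 came next by p, and are named here after their values were seen. Mrps30, found only in mitochondria, was 7.40, 7.36, 7.31, 7.46 and 7.45 in FF and 7.19, 7.16, 7.22, 6.98 and 7.11 in VV. Mrpl4, a relative of the bacterial large subunit protein L4, was 10.38, 10.37, 10.32, 10.53 and 10.40 in FF and 10.19, 10.08, 10.18, 9.97 and 10.18 in VV. Mrpl36, a short protein with a bacterial counterpart, was 9.97, 9.79, 9.87, 9.94 and 9.94 in FF and 9.68, 9.53, 9.74, 9.47 and 9.61 in VV. In all 3, picked by p from the same values, every FF mouse lay above every VV mouse, which held for 3.36% of all genes. The differences were 0.26, 0.28 and 0.29 with limma adjusted p of 0.0524, 0.0543 and 0.0547. After quantile normalisation, when 0.376% of all genes passed as higher, Mrps30 passed and Mrps18a did not.

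**Figure D3:**
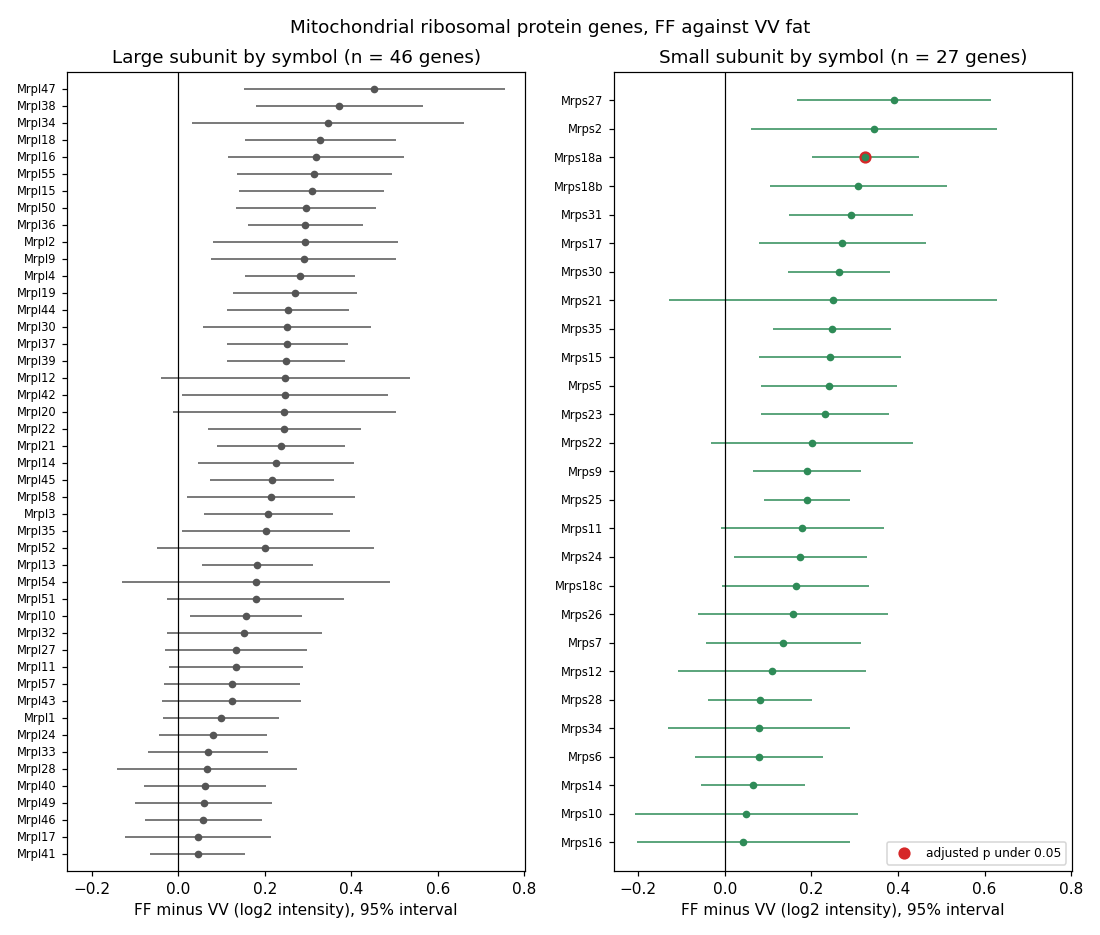
Difference between FF and VV (x axis, log2 intensity; point, estimate; bar, 95% interval from limma) for the 46 Mrpl genes (left) and the 27 Mrps genes (right), ordered by size. The estimates all lie above 0, and Mrps18a, marked in red, is the gene past the adjusted threshold. Intervals of the genes with the smallest differences cross 0, as do those of some genes with larger ones, such as Mrps21, Mrpl12 and Mrpl20.

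Among large subunit genes, the largest differences were those of Mrpl47, Mrpl38, Mrpl34, Mrpl18, Mrpl16 and Mrpl55. Mrpl47, a relative of the bacterial tunnel-exit protein L29, was 7.21, 7.53, 7.24, 7.70 and 7.35 in FF and 7.01, 7.00, 7.16, 6.47 and 7.11 in VV. The groups did not overlap, but VV replicate 4 lay well below the others, and the difference of 0.45 ± 0.14 SE (1.37-fold) had an adjusted p of 0.129; it was 0.33 without that mouse. Mrpl47 has a second probe set, on which the FF mean was 6.54 ± 0.18 and the VV mean 6.42 ± 0.11 (SD, 5 mice each), so this probe set gave a difference of 0.12 where the other gave 0.45. Mrpl38, found only in mitochondria and part of the central protuberance of the large subunit, was 9.54, 9.44, 9.33, 9.64 and 9.64 in FF and 9.25, 9.05, 9.34, 8.93 and 9.17 in VV. FF replicate 3 lay just under VV replicate 3, and the difference was 0.37 ± 0.09 SE (adjusted p = 0.0722). Mrpl34 differed by 0.35 (adjusted p = 0.255), Mrpl18, another protuberance protein, by 0.33 (adjusted p = 0.0756), Mrpl16 by 0.32 (adjusted p = 0.118) and Mrpl55 by 0.32 (adjusted p = 0.0902). At the other end, Mrpl41, Mrpl17, Mrpl46 and Mrpl49 differed by 0.05, 0.05, 0.06 and 0.06, each less than its spread in VV. The sign of Mrpl17 and of Mrpl49 turned without VV replicate 4.

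Among small subunit genes, Mrps27, Mrps2, Mrps18a, Mrps18b, Mrps31 and Mrps17 differed most. Mrps27, a pentatricopeptide-repeat protein found only in mitochondria, was 7.67, 7.78, 7.60, 8.06 and 7.80 in FF and 7.42, 7.49, 7.34, 7.11 and 7.60 in VV. The highest VV mouse came within 0.001 of the lowest FF mouse, and the difference was 0.39 ± 0.10 SE (adjusted p = 0.0902). Mrps2, a relative of bacterial S2, was 9.63, 9.43, 9.24, 9.84 and 9.59 in FF and 9.27, 9.27, 9.29, 8.79 and 9.38 in VV. FF replicate 3 lay under all VV mice but replicate 4, and the difference was 0.34 ± 0.13 SE (adjusted p = 0.209). Mrps31 and Mrps17 differed by 0.29 and 0.27 (adjusted p = 0.0654 and 0.151). Mrps16, Mrps10, Mrps14 and Mrps6 showed the smallest differences, 0.04, 0.05, 0.07 and 0.08. Mrps10 was 9.35 in FF replicate 1 and from 8.601 to 9.004 in the other 9 mice, and its sign turned without FF replicate 1 or VV replicate 4; that of Mrps16 turned without FF replicate 1 or 4.

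**Figure D4:**
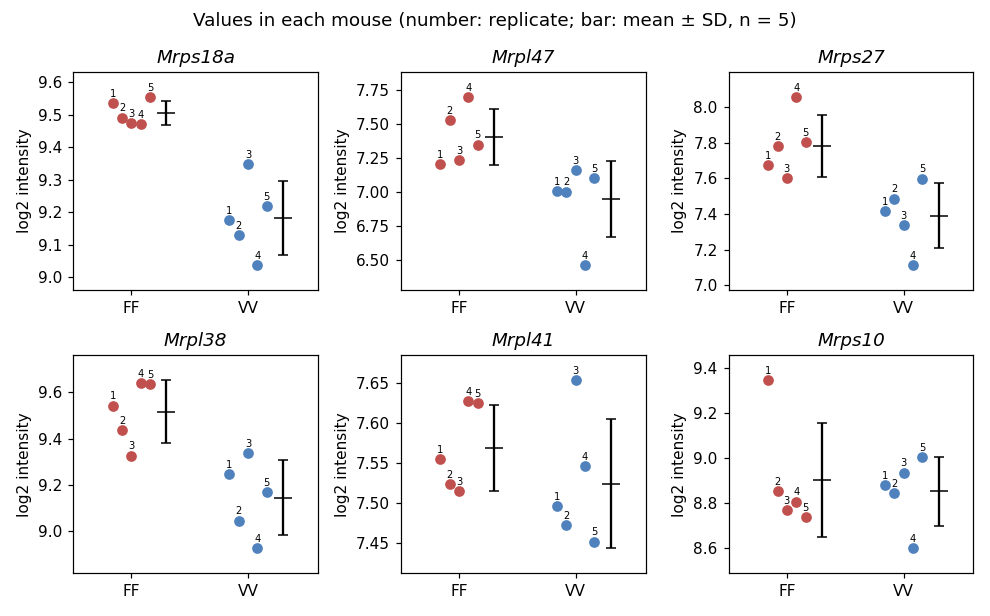
Log2 intensity (y axis, each panel on its own scale) of 6 genes in each mouse (points numbered by replicate; FF red, VV blue), with mean ± SD (n = 5). Mrps18a, Mrpl47 and Mrps27 show FF points above all VV points, Mrpl38 overlaps by 1 mouse, and Mrpl41 and Mrps10, among the smallest differences, overlap widely.

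Members were also read by their role in the particle. These role groups were assembled after the values were seen and are given as values. In the stalk that recruits translation factors, Mrpl10 differed by 0.16, Mrpl11 by 0.13 and Mrpl12 by 0.25. Mrpl12, which also binds the mitochondrial RNA polymerase, was 9.87, 9.84, 9.38, 10.17 and 9.85 in FF and 9.62, 9.41, 9.75, 9.37 and 9.71 in VV. Its FF values spread widely, with FF replicate 3 among the lowest values, and the adjusted p was 0.387. Around the exit of the nascent chain, Mrpl22, Mrpl24 and Mrpl45, which helps to anchor the ribosome to the inner membrane, differed by 0.24, 0.08 and 0.22, beside Mrpl47. In the central protuberance Mrpl40 and Mrpl46 differed by 0.06 each, well under Mrpl38 and Mrpl18. Along the path of the mRNA, Mrps5, Mrps24 and the decoding-centre protein Mrps12 differed by 0.24, 0.17 and 0.11, beside Mrps2. Mrpl58, a peptidyl-tRNA hydrolase built into the large subunit, differed by 0.22 (adjusted p = 0.251). Of these genes none passed the adjusted threshold in limma, and Mrpl10, Mrpl22, Mrpl45, Mrpl47, Mrpl18, Mrpl38, Mrps2, Mrps5, Mrps24 and Mrpl58 had an unadjusted p under 0.05. At that unadjusted threshold 10.2% of all genes and 56.2% of the 73 members were higher in FF. The 45 members with a bacterial counterpart had a median of 0.23 and the 28 without one a median of 0.21.

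The members lie on 17 chromosomes, with the highest numbers on chromosome 11 (11 genes) and 17 (8 genes). A single member, Mrpl13, lies on chromosome 15, which carries Fob3a and Deptor. Mrpl13 was 8.20, 8.32, 8.37, 8.26 and 8.48 in FF and 8.13, 8.23, 8.19, 8.05 and 8.13 in VV. FF replicate 1 lay below VV replicate 2, and the difference of 0.18 ± 0.06 SE (adjusted p = 0.143) was under the median of the members. In the reference annotation 1 protein-coding gene, the collagen gene Col14a1, lies between Deptor and Mrpl13; it differed by -0.27 ± 0.20 SE (adjusted p = 0.547).

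The start regions of the genes were compared because the members moved together. RefSeq promoter windows on build GRCm38.p6, from 250 bases before to 50 bases after a start, were at hand for 64 of the 73 members (67 windows). Letters known to be bound by NRF1, by ETS factors such as GABP and by YY1, regulators of many mitochondrial genes, were searched on both strands. The NRF1 letters, GCGCA and GCGC with any 1 base between them, were in 19.4% of the member windows, against 4.60% of all 32851 windows and 6.38% of windows of protein-coding genes. The ETS letters CCGGAAG were in 34.3% against 8.86% and 11.6%, and the YY1 letters AAGATGGC in 17.9% against 2.75% and 3.05%. The median GC content was 58.3% in member windows, 52.7% in all windows and 56.3% in those of protein-coding genes. Other letters differed less from the windows of protein-coding genes: AAGGTCA of the ERR receptors was in 5.97% against 4.08%, CCAAT in 41.8% against 38.2%, GGGCGG in 49.3% against 46.2% and the E-box CACGTG in 10.4% against 7.84%. Of the 64 members, 40 held NRF1, ETS or YY1 letters and their median difference was 0.21; the other 24 had a median of 0.22. NRF1, ETS and YY1 letters were thus more frequent in member windows than in other windows, while members with and without them had similar median differences. None of the sets of letters contains another. A match is a description of the sequence and not a measured binding site.

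The windows of 5 members are shown to let these letters be seen: Mrps18a, which passed the threshold, Mrps27, the small subunit gene with the largest difference, Mrpl12, Mrpl17, which has NRF1 letters and hardly differed, and Mrps30, which has none of the 3. Each runs from 120 bases before to 30 bases after the start, 5′ to 3′ on the gene's own strand, and capitals mark the ETS (CCGGAAG or its complement), YY1 (AAGATGGC) or NRF1 matches.
Mrps18a, chr17:46110884-46111033, plus strand: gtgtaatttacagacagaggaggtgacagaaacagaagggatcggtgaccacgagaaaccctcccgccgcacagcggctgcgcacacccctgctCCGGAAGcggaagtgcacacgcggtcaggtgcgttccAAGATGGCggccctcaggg
Mrps27, chr13:99344666-99344815, plus strand: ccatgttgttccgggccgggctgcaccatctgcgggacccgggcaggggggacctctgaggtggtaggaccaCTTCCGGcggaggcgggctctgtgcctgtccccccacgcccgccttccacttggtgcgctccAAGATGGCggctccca
Mrpl12, chr11:120484517-120484666, plus strand: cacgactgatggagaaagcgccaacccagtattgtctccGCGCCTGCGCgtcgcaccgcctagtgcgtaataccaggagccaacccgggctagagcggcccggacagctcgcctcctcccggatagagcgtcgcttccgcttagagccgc
Mrpl17, chr7:105811058-105811207, minus strand: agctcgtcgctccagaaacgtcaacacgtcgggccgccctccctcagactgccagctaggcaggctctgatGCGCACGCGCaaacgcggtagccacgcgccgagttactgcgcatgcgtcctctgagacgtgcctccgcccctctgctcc
Mrps30, chr13:118387223-118387372, minus strand: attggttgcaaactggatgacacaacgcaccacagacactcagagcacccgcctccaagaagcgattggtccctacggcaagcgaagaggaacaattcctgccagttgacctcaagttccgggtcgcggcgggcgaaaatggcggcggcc
Mrps18a and Mrps27 both have ETS letters before the start, on opposite strands, and YY1 letters just after it.

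The genes for those regulators were next compared. Nrf1, Gabpa and Yy1 differed by 0.03, 0.06 and 0.01 (adjusted p = 0.830, 0.697 and 0.951). Of the list of 9 regulators 2 rose, against 0.621% of all genes. They were the coactivators Ppargc1a, by 0.99 ± 0.14 SE (adjusted p = 0.0219), and Ppargc1b, by 0.61 ± 0.11 SE (adjusted p = 0.0352), which drive mitochondrial biogenesis. Both calls were lost with the replicate number as a block (adjusted p = 0.143 and 0.161); the call of Ppargc1a was also lost without FF replicate 5 or VV replicate 2 or 5, and that of Ppargc1b without any 1 of 7 mice, FF replicates 1, 4 and 5 and VV replicates 2 to 5. Esrra, the receptor ERRα, differed by 0.14 (adjusted p = 0.526). Of the 15 measured members of the thermogenic adipocyte list 13 were higher in FF on average, against 50.3% of all genes. Past the adjusted threshold 5 were higher, against 0.621% of all genes. These were Ppargc1a itself, Cox7a1, Cox8b and, named after their values were seen, Ucp1 and Cidea. The list had mouse means from 0.24 to 0.94 in FF and from -0.91 to -0.39 in VV, lowest in VV replicate 4. Its part in the shift of the ribosome genes was not tested. In bulk tissue, more cells of a type and more RNA per cell cannot be told apart.

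Other parts of mitochondrial gene expression were compared from lists of their genes, to be read against 10.2% of all genes higher at an unadjusted p under 0.05 and 0.621% higher at the adjusted threshold. The ribosome proteins with other names, Dap3, Ptcd3, Chchd1 and Gadd45gip1, differed by 0.16, 0.34, 0.23 and 0.18, with none past the adjusted threshold in limma and 3 of 4 at an unadjusted p under 0.05. All 15 measured mitochondrial translation factors were higher in FF on average (median 0.19), 12 of them at an unadjusted p under 0.05. Their list means ran from 0.04 to 0.18 in FF and from -0.20 to -0.05 in VV, so that these did not overlap. The list means of the tRNA charging, assembly and mitochondrial DNA genes below and of the regulators above did not overlap either. Those of the ribosome proteins with other names did overlap. For the regulators the median difference was 0.06, and 2 of the 9, Ppargc1a and Ppargc1b, had an unadjusted p under 0.05. Of the translation factors 1 rose, Oxa1l, the insertase that takes new chains from the ribosome into the membrane, by 0.19 ± 0.04 SE (adjusted p = 0.0495). Lrpprc, a stabiliser of mitochondrial mRNA, differed by 0.40 (adjusted p = 0.0591). All 21 tRNA charging genes were higher on average (median 0.15), 13 of them at an unadjusted p under 0.05. Of the 21, 2 rose, Gatb, a subunit of the glutaminyl-tRNA amidotransferase, by 0.40 ± 0.07 SE (adjusted p = 0.0415), and Sars2, the seryl-tRNA synthetase, by 0.31 ± 0.06 SE (adjusted p = 0.0427). Each of these 3 calls was lost without any 1 mouse except FF replicate 3 or, for Gatb, VV replicate 3, and all 3 were lost when blocked by replicate number, with an adjusted p of 0.196 for Oxa1l. Of 26 ribosome assembly factors 25 were higher on average (median 0.14) with none past the threshold in limma and 9 at an unadjusted p under 0.05; Eral1, a GTPase that binds small subunit RNA, differed by 0.32 (adjusted p = 0.0578) and Noa1, another GTPase, by 0.25 (adjusted p = 0.0788). Of 9 genes of mitochondrial DNA transcription and replication 8 were higher on average (median 0.12), with none past the threshold in limma and 4 at an unadjusted p under 0.05; Tfam, which packages mitochondrial DNA, differed by 0.27 (adjusted p = 0.0687) and Top1mt by 0.23 (adjusted p = 0.0844).

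The median difference of the members lay between that of the ribosome of the cytosol and that of the respiratory chain. Of 30 measured genes named as cytosolic ribosomal proteins, 12 were higher and 18 lower in FF on average, with a median of -0.03. The list was taken by symbol, so these counts and the median include relatives and other genes with such symbols. Of those, Rpl10l, Rpl39l, Rpl3l, Rpl7l1, Rps19bp1 and Rps27l were higher on average, and Rpl32l, Rps23rg1 and Rps4l lower. None of the 30 passed the threshold in limma and 1 had an unadjusted p under 0.05, against 6.18% of all genes lower. It was Rpl23, which differed by -0.20 (adjusted p = 0.219), followed by Rps3 at -0.15 (adjusted p = 0.320). The list of nuclear genes of the respiratory chain and ATP synthase was also taken by symbol, and includes relatives such as Cox6b2, Cox7b2, Cox8c and Ndufa4l2. All 73 measured genes of this list were higher in FF on average, with a median of 0.32 against 0.22 for the ribosomal members. At an unadjusted p under 0.05, 61 of them were higher, against 41 of the ribosomal members and 10.2% of all genes. Every FF mouse lay above every VV mouse for 17 of them, against 15 of the ribosomal members and 3.36% of all genes. Of the respiratory chain genes 7 rose, against 0.621% of all genes, among them Atp5pb by 0.33, Uqcrc1 by 0.58, Sdha by 0.38, Uqcrfs1 by 0.47, Cox7a1 by 2.45 and Cox8b by 1.93 (adjusted p = 0.0267 to 0.0427). The calls of these 6 were lost in 6 (Cox7a1) to 12 (Cox8b) of 19 alternatives, for all 6 with a block on replicate number and on leaving out any 1 of FF replicates 2 and 5 and VV replicates 2, 4 and 5; leaving out FF replicate 1, FF replicate 4 or VV replicate 3 ended all of them but that of Cox7a1. The respiratory chain mean had the same outer mice as the ribosomal members: FF replicate 4 was highest at 0.33, VV replicate 4 lowest at -0.41, and FF replicate 3 at -0.05 lay below VV replicate 3 at -0.01. The differences between these lists were not tested.

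**Figure D5:**
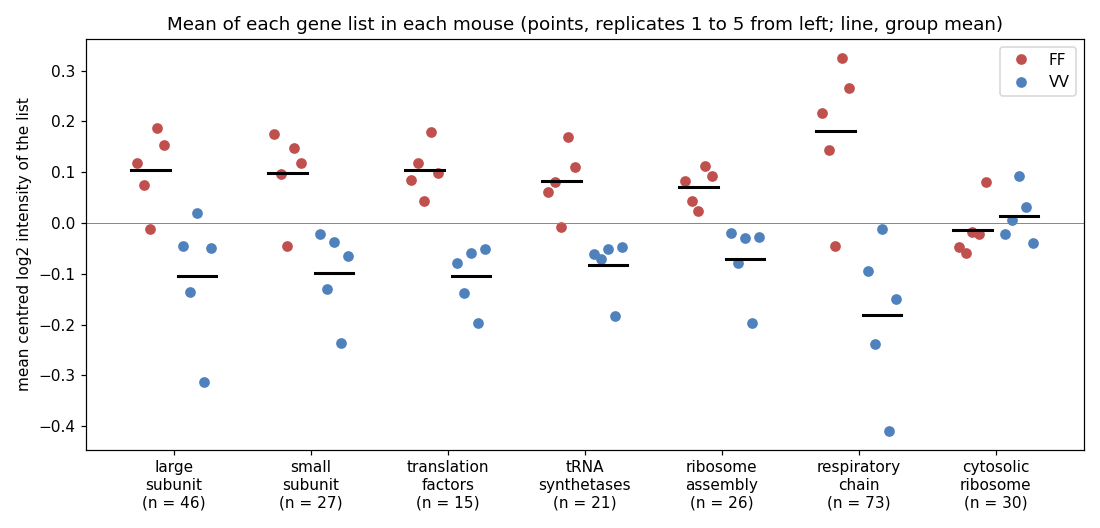
Mean of each gene list in each mouse (y axis, log2 intensity centred per gene over the 10 mice; points, replicates 1 to 5 from left in FF red and VV blue; line, group mean). Large and small subunit separate the groups by similar amounts with FF replicate 3 among the VV mice, the translation factor, tRNA charging and assembly lists show smaller spreads, the respiratory chain spreads more widely, and the cytosolic ribosome list lies near 0 in both groups.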

How the data were processed

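Fat RNA of 10 mice (5 FF, 5 VV) was measured on 1 array each. The authors deposited log2 intensities processed by RMA, per the submitters' processing notes (the log2 scale was read from the values); RMA normalises arrays together and gives 1 value a probe set. The sources used here give no version, chip description or build. Of 35557 probe sets, 25689 had a value on all arrays and 9868 on none; 20777 valued ones named 1 gene, and the one with the highest mean was kept for each of 19659 genes. Symbols and chromosomes came from RefSeq (GRCm38.p6). FF was compared with VV by limma 3.58.1 in R 4.3.3 (lmFit, eBayes, two-sided, no covariates), and p-values were adjusted by Benjamini-Hochberg over the 19659 genes, with 0.05 as threshold. Lists are described by counts and medians, without a list test. Members and lists were chosen with earlier results of these data known. Named are Deptor, members past the threshold, the 6 largest and 4 smallest differences of each subunit, members on chromosome 15, Mrpl12, Mrpl58, the Mrps18 paralogs and, of each related list, up to 6 genes past the threshold and the 2 with the smallest p; Mrps36, also in that rule, has no value. Alternatives left out mice, blocked by replicate number, renormalised, filtered on intensity, averaged probe sets, used a trend, weights or a threshold of 0.10. The fit was tested on simulated data with independent noise for each gene and shifts of 0.5 or 1. It recovered 80 and 95 of 100 shifted genes, with 11 false among 186 calls. All member differences were smaller than these shifts, so the simulation does not show how often such differences are called. The number of arrays limits the precision. Same-numbered mice of the 2 groups had correlated deviations of -0.264 to 0.102 and were not treated as pairs.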

Additional observations from a re-analysis of the deposited data

Results flagged for a closer look

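Within a group of 5 mice, 7 values lay far from the others by a gap of over 0.71 of the group's range. The 56 groups of values examined do not cover all 73 members, and chance flags about 1 in 20. Members not examined held such values too, among them VV replicate 4 for Mrpl52 (8.78 against 9.32 to 9.36) and Mrpl20 (9.07 against 9.61 to 9.68). VV replicate 4 was far below the other VV mice for Mrpl47 (6.47 against 7.00 to 7.16), Mrpl17 (8.69 against 9.01 to 9.12), Mrps2 (8.79 against 9.27 to 9.38) and Mrps17 (7.20 against 7.60 to 7.67). FF replicate 3 was far below the other FF mice for Mrpl55 (8.97 against 9.20 to 9.26). VV replicate 1 was far above the other VV mice for Mrps31 (8.38 against 8.09 to 8.17), and FF replicate 1 far above the other FF mice for Mrps10 (9.35 against 8.74 to 8.85).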

How the results depend on the processing

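The median difference of the 73 members stayed between 0.168 and 0.247 under every alternative run, that of the large subunit between 0.163 and 0.260 and that of the small subunit between 0.176 and 0.239. The gap between the subunits ran from -0.017 (without VV replicate 4, where it turned) to 0.051. Counts past the threshold were not stable. With the replicate number as a block, which the labels give without saying that it pairs mice, 5 genes, 0 members and 0 genes of the related lists passed, against 148, 1 and 12. Only replicate 1 of FF correlated best with its own number in VV. Without both FF replicate 1 and VV replicate 1 the counts were 28 (0.142% of all genes), 0 and 2. With arrays centred on their median they were 338 (1.72%), 7 and 30. Above the 25th percentile of intensity, where 14744 genes were tested, they were 230 (1.56%), 4 and 19. Above the median of intensity, where 9830 genes and 66 members were tested, they were 355 (3.61%), 7 and 33. Array weights gave 383 (1.95%), 7 and 35, and an adjusted p of 0.10 gave 704 (3.58%), 17 and 49. Quantile normalisation gave 95 genes. Leaving out 1 mouse gave 7 to 379 genes, 0 to 13 members and 0 to 42 genes of the related lists. Among named genes the sign turned for Mrpl17 (-0.024; range 1 mouse out -0.024 to 0.083) and Mrpl49 (-0.004) without VV replicate 4, for Mrps16 without FF replicate 1 (-0.006) or FF replicate 4 (-0.012; range -0.012 to 0.140), and for Mrps10 without FF replicate 1 (-0.061; range -0.061 to 0.090), VV replicate 4 (-0.014), both FF replicate 1 and VV replicate 1 (-0.054) or with array weights (-0.001). By the naming rule 13 genes past the threshold were named, Deptor included; none stayed past it under all 19 alternatives (Ucp1 and Cidea were not among them); Deptor was lost with the block alone (adjusted p = 0.0539). The causes were not tested, except that fewer genes or mice entered some fits.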

Other observations

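The probe set that names both Ccdc142 and Mrpl53 was left out of every count. The FF mean was 8.39 ± 0.07 and the VV mean 8.25 ± 0.11 (SD, 5 mice each), a difference of 0.14, and whether the signal comes from Mrpl53 was not analysed here.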
